A study of Mus musculus with 3 samples.

Results

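The genes described here are 10 members of the Bcl2 family that are not among its classical p53 targets: Bcl2, Bcl2l1, Bcl2l2, Mcl1, Bak1, Bok, Bcl2l11, Bid, Bad and Bmf. Each was taken by gene symbol, and its transcript clusters were found from the description in the files or from exact matches of their sequence tags to reference mouse transcripts. The members were chosen by name and not by their values, though with earlier results of these data known. All 10 were listed in at least 1 library and 8 in every library, among 14524 genes named in 20595 clusters. Only 8 of the 10 reached the 15 tags over the 3 libraries that were needed for a test, out of 13812 clusters tested. Bad, with 25 tags, was the least abundant member tested, and Bid and Bok, with 5 tags each, fell short of that minimum.

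The study followed gene expression in the skin of mice given cyclophosphamide, an alkylating chemotherapy drug that causes hair loss. Every group was male C57BL/6, aged 2 months, and was depilated 9 days before the injection so that the follicles were growing hair. Whole skin was used. Skin at day 0 had no treatment, and skin at days 1 and 2 was taken 1 and 2 days after an intraperitoneal injection of 150 mg per kg, the unit in the design text, where the sample labels have km. There was 1 library for each day and no untreated skin at days 1 or 2, so time and treatment cannot be told apart. The labels do not state how many mice went into a library.

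Proteins of the Bcl2 family control the mitochondrial route to cell death. The pro-survival members Bcl2, Bcl2l1 (Bcl-xL), Bcl2l2 (Bcl-w) and Mcl1 hold back the pore-forming members, Bak1 and its relatives, which otherwise open the outer mitochondrial membrane and release cytochrome c. BH3-only proteins such as Bcl2l11 (Bim), Bid, Bad and Bmf bind the pro-survival members or the pore formers and tip the balance toward death. In skin, Bcl2 is known for keeping melanocytes of the hair follicle alive, and mice that lack it turn grey. Much of the family's control lies in protein turnover, phosphorylation, cleavage and binding, which transcript counts do not measure.

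Each transcript was read as a tag of 21 bases that starts at a CATG, the site cut by the enzyme NlaIII, with the site nearest the 3′ end of the transcript expected to give most tags. A transcript gives at most 1 tag whatever its length, so counts were compared between genes without a correction for length. The tags below are those on which the members' values rest, one per gene with most copies, and for Bcl2 a further pair found further upstream. Capitals mark the NlaIII site. Positions are on GRCm38, from the GENCODE annotation.
Bcl2: CATGtctgtctgaaaaaataa
Bcl2, upstream in the 3′ UTR: CATGtaaaacattatcttgta
Bcl2, upstream in the 5′ UTR: CATGccaacggggaaacacca
Bcl2l1: CATGactgagggaccaatggg
Bcl2l2: CATGctctgctagcagacctt
Mcl1: CATGtacattctatctgggtg
Bak1: CATGacctacttcacccccac
Bok: CATGccctggttgactgcctg
Bcl2l11: CATGcgggtcctgtccacacg
Bid: CATGcagccacacacacataa
Bad: CATGgaggcgcaggggctatg
Bmf: CATGtgtaaatatcctctcat

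The leading Bcl2 tag lies at chr1:106538199-106538219 on the minus strand, in the 3′ UTR within the last of 2 exons and 42 bases from the transcript's end. For Bcl2l1 the tag is at chr2:152781370-152781390 (minus), for Bcl2l2 at chr14:54887571-54887591 (plus), for Mcl1 at chr3:95663016-95663036 (plus) and for Bak1 at chr17:27020416-27020436 (minus). The Bcl2l11 tag is at chr2:128162138-128162158 (plus), that of Bid at chr6:120891953-120891973 (minus) and that of Bmf at chr2:118528799-118528819 (minus). All of these are in the 3′ UTR of the last exon. The other 2 are in coding sequence instead: that of Bok at chr1:93694149-93694169 (plus), in exon 4 of 5, and that of Bad, which crosses the junction of exons 2 and 3 on chromosome 19, with 7 bases at 6943040 to 6943046 and 14 bases at 6950640 to 6950653. Alternative splice forms that share a last exon, such as the long and short forms of Bcl2l1, are not separated by such tags. The only Bok tag was at site 3 counted from the 3′ end, so the Bok values rest on an upstream site. The Bad tag was at site 1 as deposited and at site 2 of 2 in the reference transcript used here.

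The 3 libraries were of similar size, with 2636804 to 2859653 tags in the deposited tables, which is 45.3% to 47.1% of all tags kept by the authors. Levels are given as tags per 1000000 (CPM) after TMM scaling, which adjusts each library for its overall composition, with exact Poisson 95% intervals that cover counting error only. Ratios between days are on the log2 scale with 0.5 tags added to each count. A cluster was called changed at a 2-fold or larger ratio and a Benjamini-Hochberg adjusted p of 0.001 or less in a two-sided exact binomial test of 2 libraries. That test compares libraries, not conditions, and no difference here has a replicate check. The epidermal markers Krt5, Krt14, Krt1, Krt10 and Lor, which define the labelled tissue, were listed in all 3 libraries. Their summed level was 11178.2 to 15069.4 CPM. Single genes of this list differed widely. At day 0 Krt5 was at 4711.7 and Krt14 at 82.1 CPM, and Krt10 was at 6339.0 and Krt1 at 5.33. How fully each gene's transcripts gave listed tags was not tested, so levels are compared between genes as tag counts only.

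Of the members, Bcl2 alone was called, in 1 comparison, and their summed level differed little between the libraries. The summed level of the 10 members was 369.3 CPM at day 0, 377.4 at day 1 and 393.8 at day 2. At day 1 over day 0, 0 of 8 members tested were called, beside 2.93% of all clusters (1.54% higher and 1.39% lower). At day 2 over day 0, 1 of 8 was called, beside 6.52% of all clusters (3.44% higher and 3.08% lower). At day 2 over day 1, 0 of 8 were called, beside 2.95% (1.82% higher and 1.13% lower). The members' median log2 ratios were 0.02, -0.03 and -0.08 in those comparisons, and those of all clusters tested were -0.02, 0.01 and -0.02. With so few members, these shares do not separate the family from the background.

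**Figure D1:**
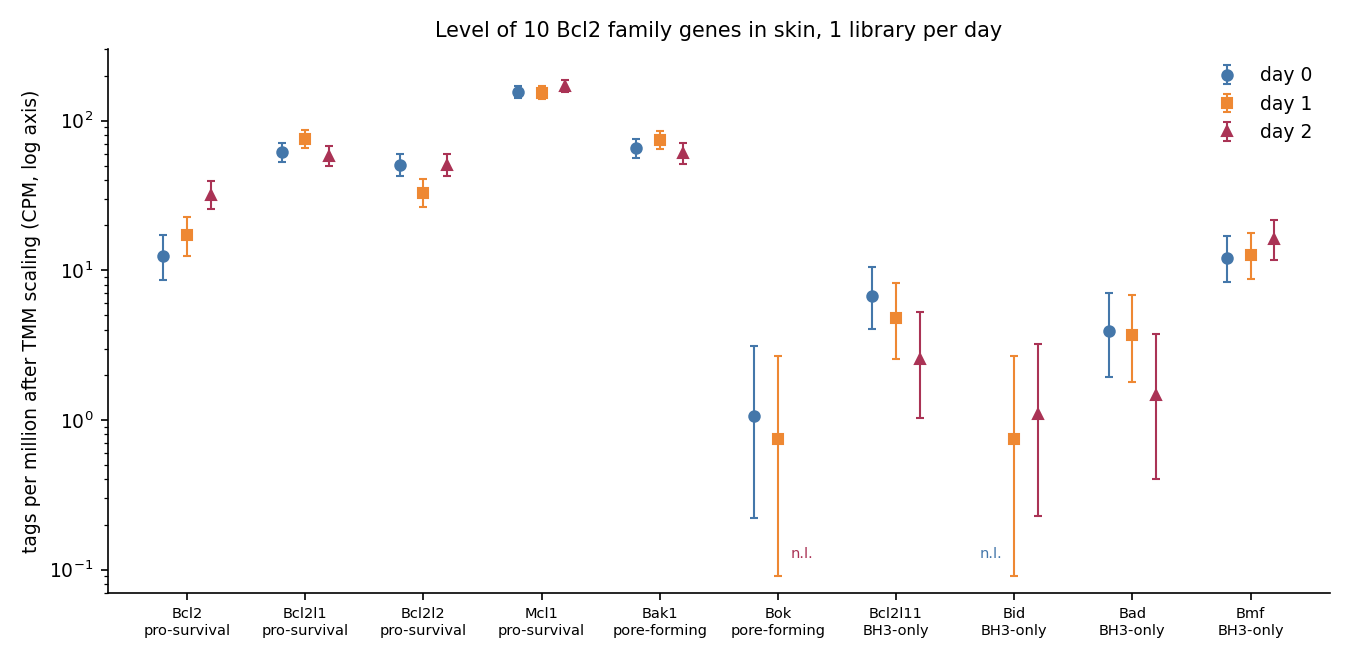
Level of each member (CPM, log axis) in the libraries of days 0, 1 and 2, with exact Poisson 95% intervals; n.l. marks a gene not listed. Mcl1 stood highest on every day, Bcl2 went from 12.4 CPM at day 0 to 32.0 at day 2, and Bid and Bok were between 0.744 and 1.10 CPM where listed.

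The members spanned a wide range of tag levels, in an order that need not be that of their transcripts. Mcl1, a short-lived pro-survival protein, was the most abundant, with a mean of 160.1 CPM over the 3 libraries, above 93.0% of all clusters tested. Bak1, Bcl2l1 and Bcl2l2 came next, with means of 66.9, 65.2 and 44.8 CPM. Bcl2 averaged 20.5 and Bmf 13.6 CPM, near the middle of all clusters, with 55.2% and 45.4% of clusters below them. Bcl2l11 and Bad were scarce, at 4.72 and 3.03 CPM. Neighbours in this order were not always separated by their counting intervals: at day 0 the intervals of Bak1 and Bcl2l1 overlapped, as did those of Bcl2l1 and Bcl2l2, of Bcl2 and Bmf, and of Bcl2l11 and Bad.

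Bcl2, the founding pro-survival member, was higher at day 2. It gave 35 tags at day 0, 46 at day 1 and 87 at day 2, which is 12.4 (8.67 to 17.3), 17.1 (12.5 to 22.8) and 32.0 (25.6 to 39.4) CPM. Day 2 was the highest of the 3 libraries, and its interval did not overlap that of either earlier day. Bcl2 rose 2.55-fold by day 2, a log2 ratio over day 0 of 1.35 (95% interval 0.78 to 1.97) at an adjusted p of 1.1e-05 (exact binomial test). The day 1 ratio of 0.45 (-0.21 to 1.14) was not called, with an adjusted p of 0.385. From day 1 to day 2 the log2 ratio was 0.89 (0.37 to 1.45), or 1.86-fold, and was not called at an adjusted p of 0.00408; scaled by all kept tags it was 1.01 and called. With a biological coefficient of variation of 0.2 assumed, edgeR's exact test was read at an adjusted p of 0.05 or less. There the day 2 over day 0 call of Bcl2 was lost at an adjusted p of 0.168. In whole skin, a higher count can come from more cells of a type that makes the transcript or from more transcript per cell, and these cannot be told apart.

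The Bcl2 tags did not all come from one site. At day 0 all 35 listed tags came from the 3′-most site, with a lower Wilson 95% bound of 90.1% on that share. At day 1 it was 34 of 46, or 73.9% (59.7 to 84.4), and at day 2 70 of 87, or 80.5% (70.9 to 87.4). The smallest copy number listed was 2, so single tags at other sites would not be seen. The intervals do not cover this. The upstream 3′ UTR tag (chr1:106541834-106541854) was not listed at day 0 and had 7 copies at day 1 and 10 at day 2. The 5′ UTR tag (chr1:106713054-106713074) was not listed at day 0 and had 5 copies at each later day. Counted at the 3′-most site alone, the day 2 ratio of Bcl2 was 1.04, and the call was lost at an adjusted p of 0.00221. At that site days 0 and 1 were nearly level, with 35 and 34 tags, and day 2 stood above both. A lowest 3′-most share at day 1 was also seen for Mcl1, Bcl2l2, Bak1 and Bcl2l11. That of Bcl2l2 was 98.6%, 91.0% and 92.0% on days 0, 1 and 2. Bcl2l1 went the other way, at 87.9%, 92.6% and 87.4%. The cause was not tested.

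Several cell type marker lists stood higher at day 2 than at day 0 along with Bcl2. Epidermal markers were at 11178.2, 15069.4 and 14196.7 CPM, with 5 of 5 ratios positive and none called. Summed macrophage and monocyte markers were at 193.0, 182.6 and 408.5 CPM on days 0, 1 and 2. Of the 6 tested, 3 were called higher at day 2 over day 0 and 1 was negative (Adgre1, -0.17). Cd68 and Cd14 were the 2 of 8 not listed. Skeletal muscle markers were at 6522.7, 9203.6 and 14223.1 CPM, with 5 of 6 called higher. Fibroblast markers were at 2949.6, 1875.8 and 3268.4 CPM, with 2 of 6 called higher. Their day 2 ratios over day 0 were 4 positive and 2 negative, with Col1a2 at -0.45. Mast cell markers went from 133.3 to 215.6 CPM (1 of 5 called higher). Melanocyte markers were at 420.2, 610.5 and 556.1 CPM, but only Pmel of the 5 was called higher at day 2 over day 0, the list's median log2 ratio was 0.05, and the other 4 summed to 333.8, 409.7 and 302.3 CPM. T cell markers had few tags, with a summed level between 6.69 and 7.82 CPM and Cd3e, Cd3g and Cd8a not listed. Krt85 of the hair list was not listed either, so few tags do not show that T cells were absent. Endothelial markers were at 64.3 and 98.8 CPM at days 0 and 2, and S100a9, the one neutrophil marker of 5 listed, at 8.18 and 30.5. Cycling cell markers were at 388.9 and 443.0 CPM on those days, with 2 ratios positive, 2 negative and none called. Lists that stood lower at day 2 than at day 0 were red cell, hair matrix and shaft, and adipocyte markers. Red cell markers were at 1799.0 and 141.0 CPM (3 of 3 tested called lower). Those of hair matrix and shaft were at 3486.4 and 2400.8 CPM (3 of 4 called lower, Krt31 positive at 0.22). Adipocyte markers were at 3584.5 and 1865.2 CPM (none of 4 called lower and 1 called higher). The part of any of these in the Bcl2 result was not tested.

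**Figure D2:**
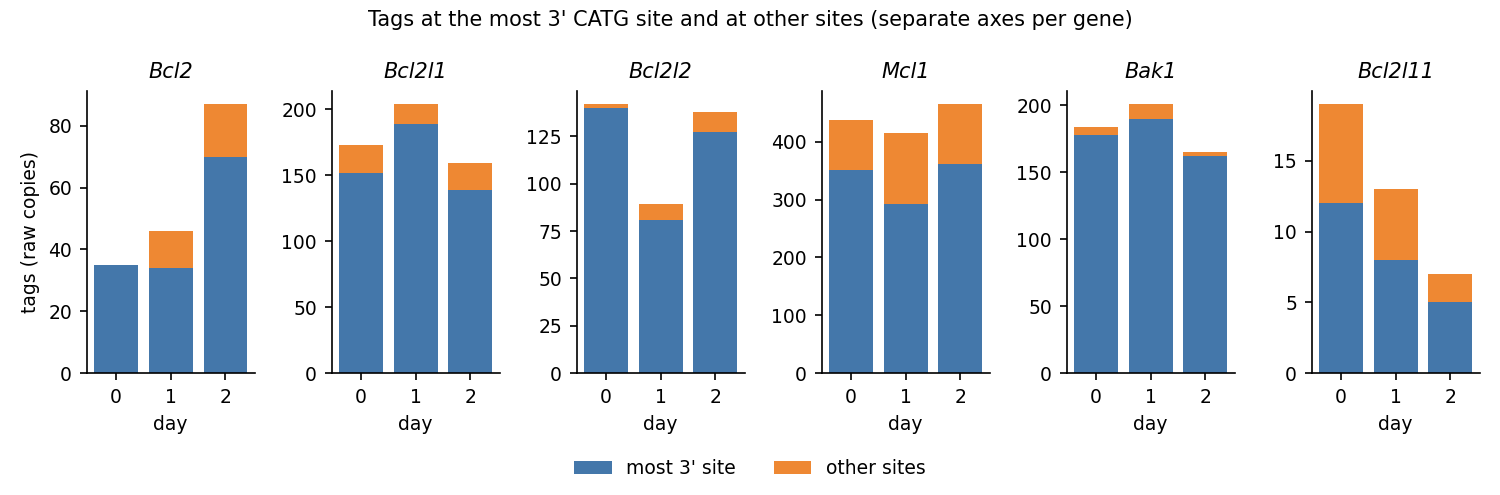
Stacked bars of raw tags (y axis, its own scale for each gene) at the 3′-most CATG site and at all other sites, by day, for the 6 members with more than 1 listed site. Most tags sat at the 3′-most site, and Bcl2 had 12 and 17 tags at other sites at days 1 and 2.

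Bcl2l1, whose main product Bcl-xL protects keratinocytes, gave 173, 204 and 159 tags. The levels were 61.5 (52.7 to 71.4), 75.9 (65.8 to 87.0) and 58.4 (49.7 to 68.2) CPM. Day 1 was the highest library, and its interval overlapped those of both other days. The log2 ratios were 0.30 at day 1 over day 0 (0.00 to 0.60, adjusted p 0.144), -0.07 at day 2 over day 0 (adjusted p 0.817) and -0.38 at day 2 over day 1 (-0.69 to -0.07, adjusted p 0.0616), and none was called. Its 3′-most tag carried 152, 189 and 139 of the tags, so the same order held at that site.

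Bcl2l2 had its lowest count at day 1. It gave 142, 89 and 138 tags, or 50.5 (42.5 to 59.5), 33.1 (26.6 to 40.7) and 50.7 (42.6 to 59.9) CPM. The day 1 interval lay below those of both other days, which were nearly equal. The log2 ratio at day 1 over day 0 was -0.61 (-1.01 to -0.22), a ratio of 0.657, and the adjusted p of 0.0114 with a ratio under 2-fold did not make a call. Day 2 over day 1 was the mirror value, at 0.61 (0.22 to 1.02) and an adjusted p of 0.0119. The leading tag accounted for 140, 81 and 127 tags, and a second small cluster of the gene, assigned by its description, held 2, 4 and 4.

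The Mcl1 counts differed little between the libraries. Its 438, 414 and 465 tags gave 155.7 (141.5 to 171.0), 153.9 (139.5 to 169.5) and 170.8 (155.6 to 187.1) CPM, and all 3 intervals overlapped. Its ratios were -0.02, 0.13 and 0.15, with adjusted p of 0.979, 0.338 and 0.319. The 95% interval of the ratio was -0.21 to 0.18 at day 1 and -0.06 to 0.33 at day 2 over day 0. Mcl1 had tags at 11 sites, and the share at its 3′-most site was 80.1% (76.1 to 83.6), 70.5% (66.0 to 74.7) and 77.6% (73.6 to 81.2). The count of tags at other sites was 87 at day 0, 122 at day 1 and 104 at day 2, so the day 1 library was the lowest in its 3′-most share. A second Mcl1 tag in the 3′ UTR, 2098 bases from the transcript's end, held 56, 76 and 66 copies. There were 4 tags that differ from an Mcl1 tag by 1 base; these variants, 12 copies in all, were counted with the gene.

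The makeup of the pro-survival transcripts differed between days. Their sum was 280.1, 280.0 and 311.8 CPM. Bcl2 made up 4.44% (3.21 to 6.11), 6.11% (4.61 to 8.05) and 10.2% (8.38 to 12.5) of their tags, while Mcl1 held 55.6%, 55.0% and 54.8%. Bcl2l1 was at 22.0%, 27.1% and 18.7%, and Bcl2l2 at 18.0%, 11.8% and 16.3%. For each Bcl2 tag there were 12.5 Mcl1 tags at day 0, 9.00 at day 1 and 5.34 at day 2. The share of Bcl2 was the only one of the 4 whose day 2 Wilson interval lay wholly above its day 0 interval.

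**Figure D3:**
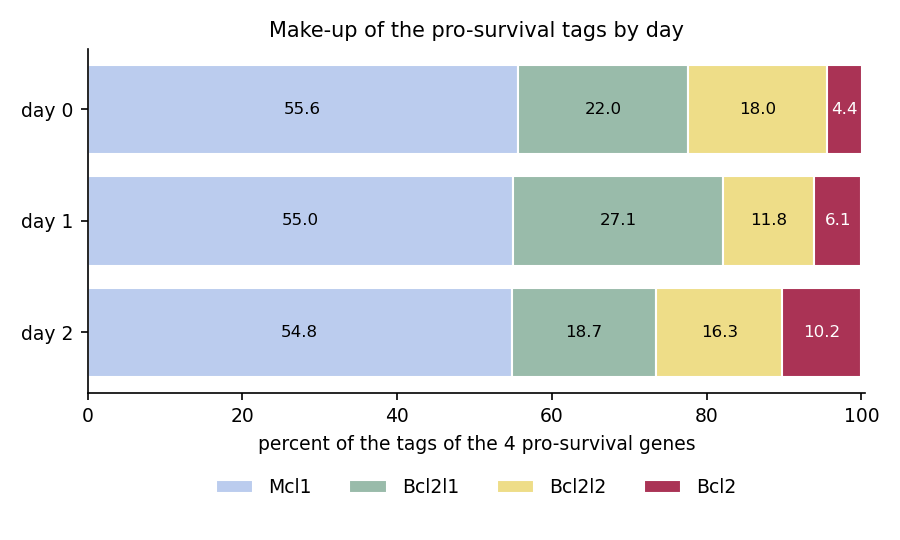
Stacked horizontal bars of the percent of the 4 pro-survival genes' tags held by each gene, 1 bar for each day's library. The Bcl2 share was 4.44% at day 0 and 10.2% at day 2, and that of Mcl1 lay between 54.8% and 55.6%.

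Bak1, the pore former that sits in the outer mitochondrial membrane, had the second highest mean level of the members, though at day 1 Bcl2l1 stood above it. Its 184, 201 and 165 tags gave 65.4 (56.3 to 75.6), 74.7 (64.8 to 85.8) and 60.6 (51.7 to 70.6) CPM, with all 3 intervals overlapping. The ratios were 0.19, -0.11 and -0.30, with adjusted p of 0.414, 0.682 and 0.158, and none was called. Bok, a relative of Bak1 whose protein is found mainly at the endoplasmic reticulum, had 3 tags at day 0, 2 at day 1 and none listed at day 2. The smallest copy number in the tables was 2, so an unlisted gene is not known to have no tags, and no ratio is given. Bak1 and Bok summed to 66.5, 75.5 and 60.6 CPM.

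Among the BH3-only genes the day 2 library had fewest tags of Bcl2l11 and Bad, and most of Bmf. Bcl2l11 encodes Bim, which can activate the pore formers directly. It gave 19, 13 and 7 tags, or 6.75 (4.07 to 10.5), 4.83 (2.57 to 8.27) and 2.57 (1.03 to 5.30) CPM. Day 0 was the highest and day 2 the lowest library, and their intervals overlapped. The ratio at day 2 over day 0 was -1.33 with a wide interval of -2.89 to -0.08 and an adjusted p of 0.0883, so it was not called. Bad, a BH3-only protein regulated by 14-3-3 proteins, gave 11, 10 and 4 tags, with ratios of -0.07 at day 1 and -1.31 (-3.52 to 0.34) at day 2 over day 0, adjusted p 1 and 0.258. At this depth a difference of 2-fold in Bcl2l11 or Bad was not detectable.

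Bmf, which binds dynein light chain, had 34, 34 and 44 tags, all from a single site. Its levels were 12.1 (8.37 to 16.9), 12.6 (8.75 to 17.7) and 16.2 (11.7 to 21.7) CPM. The day 2 ratio over day 0 of 0.41 (-0.26 to 1.11) was not called, with an adjusted p of 0.394, and the 3 intervals overlapped. Bid, the protein that caspase 8 cleaves to link death receptors to mitochondria, was not listed at day 0 and had 2 and 3 tags at days 1 and 2. It was named by its tag alone, since the description in the file did not name the gene. The 4 BH3-only genes summed to 22.7, 21.9 and 21.3 CPM, and made up 6.16%, 5.81% and 5.41% of the members' tags. For each BH3-only tag there were 12.3, 12.8 and 14.6 pro-survival tags.

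**Figure D4:**
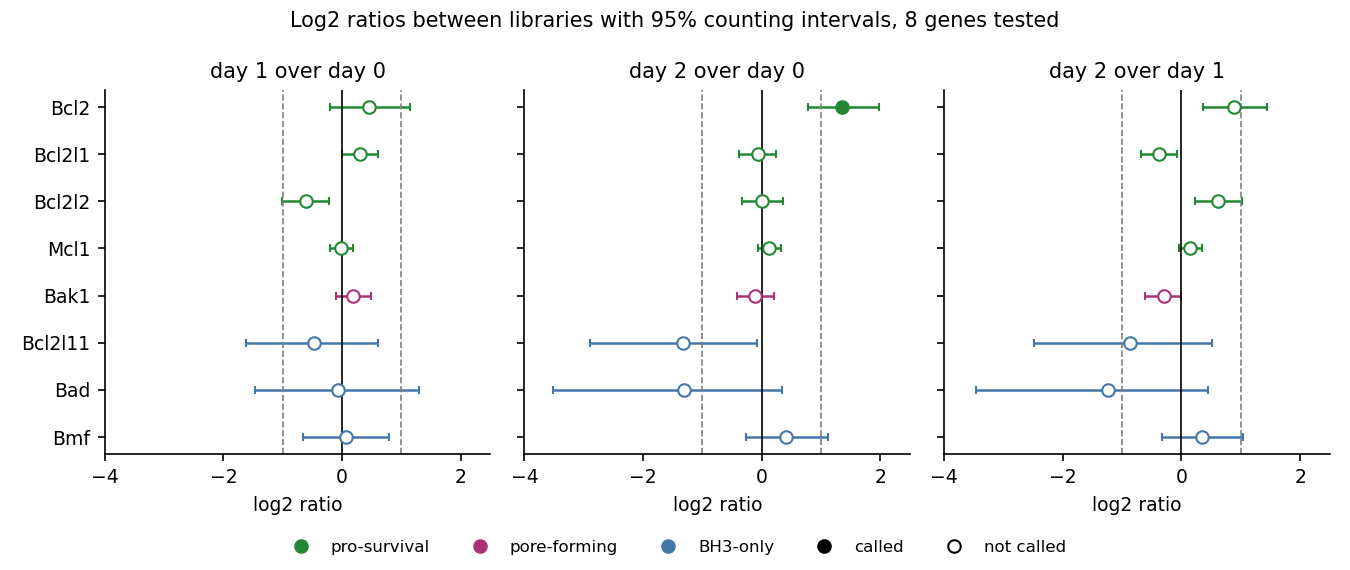
Log2 ratio of each tested member between libraries, in the comparisons of day 1 over day 0, day 2 over day 0 and day 2 over day 1, with 95% intervals of the ratio (colours mark the role, filled points were called, dashed lines mark 2-fold). The Bcl2 ratio of 1.35 at day 2 over day 0 was the one called, and the widest intervals belonged to Bcl2l11 and Bad.

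The members act within a wider set of death genes, and 52 of these were read in 5 lists chosen by function. Of them 42 were listed and 39 tested, with 1 called higher and 1 lower at day 1 over day 0, the same counts at day 2 over day 0, and none at day 2 over day 1. The 2 of 39 are 5.13% in each of the first comparisons, beside 2.93% of all clusters at day 1 and 6.52% at day 2 over day 0. Their median ratios were -0.01, 0.07 and -0.02. The gene called higher in both was Tnfrsf10b, a death receptor upstream of Bid, and the gene called lower in both was Vdac2, which binds Bak1 at the mitochondrial membrane.

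Vdac2 fell from 703 tags at day 0 to 295 at day 1 and 333 at day 2, or 249.9, 109.7 and 122.3 CPM. Its log2 ratio was -1.19 (-1.39 to -0.99, adjusted p 3e-33) at day 1 and -1.03 (-1.22 to -0.84, adjusted p 8.3e-27) at day 2 over day 0. The leading Vdac2 tag, at the 3′-most site, held 699, 295 and 333 of these, and the gene's smaller clusters, with 45, 13 and 12 tags and with 26, 18 and 9 tags, were also lower at days 1 and 2. Scaled by all kept tags, the day 2 ratio was -0.99, just inside 2-fold. Tnfrsf10b had 25, 70 and 60 tags, or 8.89, 26.0 and 22.0 CPM, and rose by 1.53 (0.87 to 2.27, adjusted p 1.9e-05) at day 1 and by 1.29 (0.62 to 2.05, adjusted p 0.00054) at day 2 over day 0. Its 3′-most site held 18, 50 and 35, and at that site alone the day 2 ratio was 0.99 and not called at an adjusted p of 0.0595. The other tag of the gene also matched the gene Gm15574. With the assumed coefficient of variation of 0.2, no call of either gene held (adjusted p 0.251 to 0.37 for Vdac2 and 0.272 to 0.324 for Tnfrsf10b).

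**Figure D5:**
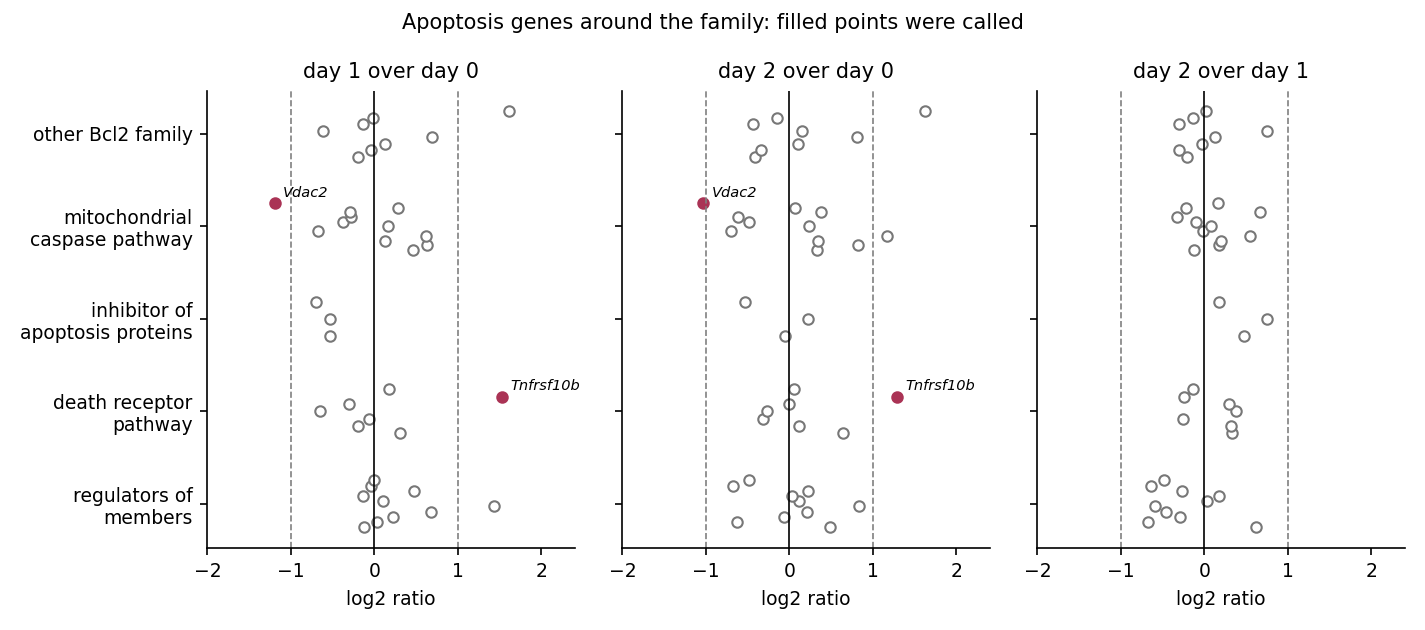
Log2 ratios of the pathway genes tested, by list, in the 3 comparisons; each point is a gene, filled points were called and dashed lines mark 2-fold. Vdac2 at -1.19 and Tnfrsf10b at 1.53 were the genes called at day 1 over day 0.

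The other genes of the family outside the 10 gave 8 tested of 15, with medians of -0.02, -0.02 and -0.09 and none called. These include classical p53 targets: Pmaip1 (Noxa), a BH3-only protein that binds Mcl1, had 12, 36 and 37 tags, with ratios of 1.61 (0.67 to 2.73, adjusted p 0.00303) and 1.63 (0.70 to 2.75, adjusted p 0.00162), short of a call. Scaled by all kept tags, Pmaip1 was called higher at day 2 over day 0 (1.67, adjusted p 0.00098). Bax, the partner of Bak1, had 113, 94 and 82 tags, and Bbc3 (Puma), a BH3-only protein, had 71, 66 and 54, with ratios at day 2 over day 0 of -0.41 and -0.34, neither called. Pmaip1, Bax and Bbc3 are named after their values were seen. Bnip3l, with 1096, 1044 and 959 tags, was the most abundant relative.

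In the mitochondrial caspase list, 11 of 13 genes were tested and Vdac2 was the one called. The list's median was 0.13 at day 1 and 0.24 at day 2 over day 0. Among the inhibitors of apoptosis, 3 of 5 were tested, with a median of -0.53 at day 1 and -0.05 at day 2. Xiap, which binds active caspases, had 201, 118 and 135 tags, with a ratio of -0.70 at day 1 and an adjusted p of 0.00026, under the 2-fold minimum.

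Of the proteins that bind, sequester, turn over or induce the members, 10 of 11 were tested and none was called, with medians of 0.06, 0.07 and -0.38. The 14-3-3 proteins, which hold phosphorylated Bad in the cytosol, included Ywhaz with 2434, 2325 and 1686 tags and Ywhae with 960, 891 and 580. Ywhae had a ratio of -0.68 at day 2 over day 0 (adjusted p 3.5e-18, exact binomial test), under the 2-fold minimum. Ywhab, with 1899, 2541 and 2139 tags, went the other way. Its ratios over day 0 were 0.48 at day 1 and 0.22 at day 2 (adjusted p 6.2e-27 and 1.5e-05, same test), also under 2-fold. At the 3′-most site alone there was no value for Ywhae. There the day 2 ratio over day 0 was 0.03 for Ywhaz, in place of -0.48, and 0.25 for Ywhab. Huwe1 and Usp9x, a ligase and a deubiquitinase acting on Mcl1, had ratios of 0.12 and 0.03 at day 2 over day 0. Dynll1, a dynein light chain that binds Bim, had 135, 132 and 84 tags in a cluster named by tags shared between genes. Its day 2 ratio over day 0 was -0.63 (adjusted p 0.00716, exact binomial test, not called). Dynll2, another dynein light chain, had 336, 374 and 309 tags and a day 2 ratio of -0.07 over day 0. Huwe1, Usp9x, Dynll1 and Dynll2 are named after their values were seen.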

How the data were processed

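Whole skin from 3 libraries was profiled by tag counting. The submitters' extract protocol gives oligo(dT) enrichment, NlaIII digestion and a 17-base tag after each CATG. The authors deposited, for each library, tag counts per UniGene cluster and CATG site, and a TPM value, which per the file headers and the values is the count per 1000000 of all tags kept. How the authors matched tags to clusters was not given in the sources used here. Clusters were named by exact match of their tags to GENCODE M21 transcripts (GRCm38), and 15076 clusters matched tags of 1 gene.

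Counts were scaled with TMM in edgeR 4.0.16 (R 4.3.3). With 1 library per group edgeR's quasi-likelihood test has no residual degrees of freedom, so pairs of libraries were compared with a two-sided exact binomial test (SciPy 1.17.1), Benjamini-Hochberg adjusted over 13812 clusters with 15 or more tags over the 3 libraries. Each gene was read from its cluster with most tags. Intervals cover counting error only, as PCR copies were not marked. The test was run on simulated data. Alternatives were other scalings (DESeq2 1.42.0 size factors, all kept tags, tags in the table), no minimum, single sites, 1-gene tags, summed clusters, a 1.5-fold minimum and edgeR's exact test with an assumed spread between animals. With the assumed spread, calls were made at an adjusted p of 0.05 or less in place of 0.001. The members, pathway lists and marker lists were chosen with earlier results of these data known. Genes named from the lists were those called, plus up to 3 with most tags in each list; some are not reported here.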

Additional observations from a re-analysis of the deposited data

How the results depend on the processing

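No paired analysis was possible because each day has 1 library and no replicates. Over 10 alternatives, 232 of 240 ratios of the tested members kept direction and side of the threshold. This count is not a measure of robustness. No minimum, a 1.5-fold minimum and an assumed spread leave the ratio itself unchanged, so its direction could not turn there. Most ratios were not called to begin with, and staying uncalled counted as kept. Bcl2 at day 2 over day 0 ranged from 1.04 to 1.39 and kept its direction. Members called at day 2 over day 0 went from 1 to 0 at the 3′-most site (1.04, adjusted p 0.00221) and when a biological coefficient of variation was assumed, of 0.2 (adjusted p 0.168) or 0.4 (adjusted p 1). Members called at day 2 over day 1 went from 0 to 1 when scaled by all kept tags (Bcl2 1.01, adjusted p 0.00083) or by tags in the table (1.03, adjusted p 0.0006). Pathway genes called went from 2 to 0 at days 1 and 2 over day 0 with either assumed spread, from 2 to 1 at day 2 over day 0 at the 3′-most site or with 1-gene tags, and from 0 to 1 at day 2 over day 1 with a 1.5-fold minimum (Ywhae). That minimum also took them from 2 to 3 at day 1 (Xiap) and at day 2 (Ywhae) over day 0. Scaled by all kept tags, the 2 called at day 2 over day 0 were both higher, with Vdac2 lost (-0.99) and Pmaip1 gained (1.67).

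Signs turned for Bmf at day 1 over day 0 (-0.01 by all kept tags, -0.07 by tags in the table), Bnip3l there (0.01, DESeq2), Ripk1 there (0.36, 3′-most site), and at day 2 over day 0 at the 3′-most site for Bcl2l2 (-0.09), Bcl2l13 (-0.42) and Ywhaz (0.03). Bcl2l13 at day 2 over day 1 was 0.08 by all kept tags and 0.10 by tags in the table. The cause was not tested. Scaling by tags in the table moved the median of all clusters to -0.15 at day 1 over day 0 and 0.12 at day 2 over day 1, and the split of calls there to 129 higher and 346 lower, and 380 higher and 102 lower, from 213 and 192, and 251 and 156; by all kept tags it was 157 and 276, and 358 and 109. Calls with an assumed spread used an adjusted p of 0.05 or less in edgeR's exact test, a looser limit than the main 0.001. With the 0.2 spread, 29, 241 and 90 clusters were called in the 3 comparisons, where the main setting called 405, 900 and 407. The 0.4 spread gave 0, 6 and 2. A 1.5-fold minimum gave 1099, 1660 and 921. Bid, Bok, Bad and Bcl2l11 are limited by depth, and the only Bok tag was upstream of the 3′-most site.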
